A study of Sus scrofa with 12 samples.

Results

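Kinesins are the motor proteins that walk along microtubules or take them apart, and tubulins are the subunits from which microtubules are built. The 51 genes described here were all rows of the deposited count table whose symbol began with KIF or KIFC followed by a digit (37 kinesins), or with TUBA, TUBB, TUBG, TUBD or TUBE followed by a digit (14 tubulins), among 29329 genes in all. The rule used names alone and no measured value. Polyadenylated RNA of pig (Sus scrofa) embryos made by in vitro fertilization had been copied into full-length cDNA by SMART-seq, amplified by PCR and counted per gene in 12 libraries. The libraries made 4 groups of 3, which their titles named con-2c and con-4c or si-2c and si-4c, so that the comparisons ask how transcripts differ between the cleavage stages and how they differ once cyclin B2 (CCNB2), a partner of the kinase that drives entry into mitosis, is depleted.

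The con groups carried the treatment label blank control, and the si groups the label si-CCNB2, a short interfering RNA injected to destroy CCNB2 mRNA. No genetic alteration was named for any group, and the methods of the study give several pooled embryos as the source of each library. Those methods describe the controls both as normal embryos and as the group of the negative control for injection, so a difference between si and con may contain the injection itself. Title and tissue label gave opposite stages in all 12 libraries: libraries titled 2c were labelled as 4-cell embryos, and libraries titled 4c as 2-cell embryos. The group names below therefore stand for titles, and with the tissue label in their place every stage difference would change sign, in the con and the si arm alike.

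Library totals lay between 27785233 and 39510908 counts, lowest in con-4c, and kinesins and tubulins took 0.383% to 0.476% of them. CCNB2 measured 464 ± 21.7 in con-2c, 42.6 ± 3.65 in si-4c, 475 ± 41.9 in con-4c and 22.7 ± 5.58 in si-2c, in CPM, that is counts scaled to a common library size with TMM factors (mean ± SD of the 3 libraries of a group, as everywhere below), so that the si libraries were low in it at both titles. The libraries of con-2c and si-4c resembled each other in RNA composition, with TMM factors of 0.852 to 0.962 and 0.871 to 0.915, against 1.06 to 1.09 in con-4c and 1.12 to 1.21 in si-2c. Transcripts of the oocyte list were present for all 12 listed genes in the table, and their sum was 23454 to 28466 CPM in con-2c and 26072 to 28298 CPM in si-4c, against 12384 to 12945 CPM in con-4c and 11234 to 13774 CPM in si-2c. Most of that sum was BTG4, with means of 18571 CPM in con-2c, 19671 CPM in si-4c, 7682 CPM in con-4c and 7897 CPM in si-2c. Means of OOEP, H1-8, ZP4, GDF9, ZP3, ZAR1 and NLRP5 were also higher in con-2c and si-4c than in con-4c and si-2c. BMP15 was lowest in con-2c (887, 1046, 985 and 1228 CPM in the same order of groups), and PADI6, ZP2 and MOS did not pair the groups in this way. Of 12 cumulus and granulosa cell markers, 7 were under 1 CPM in every library (FSHR, CYP19A1, CYP11A1, FOXL2, HAS2, PTX3 and GJA1), while the sum of the list, mostly VCAN and KITLG, was 334 to 428, 348 to 358, 214 to 225 and 211 to 244 CPM in con-2c, si-4c, con-4c and si-2c. Sperm markers summed to 14.4 to 24.2 CPM over all libraries, and trophectoderm and inner cell mass markers to 3.02 to 4.69, 2.34 to 4.45, 77.4 to 86.7 and 35.4 to 39.7 CPM in the same order of groups. In con-4c and si-2c the last sum was mostly NANOG, a pluripotency gene of the inner cell mass (means of 0, 0.0199, 63.3 and 25.7 CPM). Of the trophectoderm markers, CDX2 and KRT8 were under 1 CPM in every group. TFAP2C (0.347, 0.912, 6.36 and 3.37 CPM) and GATA3 (0.274, 0.0784, 2.87 and 1.43 CPM) had higher means in con-4c and si-2c, as NANOG had. The sums of the oocyte list, of the cumulus list and of this last list followed the same pairing of groups as many kinesins and tubulins below, and their part in the results was not tested. In such pooled samples, fewer cells of a type and less RNA per cell cannot be told apart.

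As background, alpha- and beta-tubulin pair into the dimer of the microtubule wall, gamma-tubulin nucleates the filament, and delta- and epsilon-tubulin are needed for the triplet microtubules of centrioles. Mitotic kinesins build the spindle, align chromosomes and organize the midzone where the daughter cells part, whereas transport kinesins carry vesicles, organelles and RNA toward microtubule ends. In cleaving embryos these divisions run on protein and mRNA stored in the oocyte until the embryonic genome is transcribed.

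Most counts of the 51 genes fell on mitotic kinesins. Of the 51 genes, 28 reached a mean of 10 CPM in some group, and 12 of these reached 100 CPM. A further 17 passed the filter on low counts below that level, and 6 did not pass it: TUBA8, TUBB6, KIF1A, KIF21B, KIFC2 and KIFC3, whose highest count in any library was 12. The statements on tests below therefore cover 45 genes, 33 kinesins and 12 tubulins, of 17995 genes tested. Summed over its 13 members, the mitotic group measured 3182 ± 331 in con-2c, 3200.2 ± 36.0 in si-4c, 2499 ± 67.2 in con-4c and 2305 ± 261 in si-2c, in CPM. The 17 transport kinesins together measured 505 ± 14.5 in con-2c, 558 ± 21.0 in si-4c, 593 ± 15.9 in con-4c and 574 ± 5.14 in si-2c, in CPM. The 4 alpha-tubulins summed to 223 ± 30.5 in con-2c, 256 ± 7.23 in si-4c, 258 ± 14.1 in con-4c and 326 ± 29.5 in si-2c. The 6 beta-tubulins summed to 47.6 ± 8.75 in con-2c, 45.9 ± 4.70 in si-4c, 51.4 ± 4.39 in con-4c and 50.2 ± 6.08 in si-2c. These sums are counts of fragments and were not divided by transcript length, so they do not rank genes or groups by number of molecules. By counts, mitotic kinesins made up 70.4% to 74.9% of the summed CPM of all 51 genes in con-2c and 71.2% to 71.7% in si-4c, against 66.1% to 67.5% in con-4c and 62.4% to 65.8% in si-2c. The ranges of con-2c and si-4c lay above those of con-4c and si-2c without overlap.

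**Figure D1:**
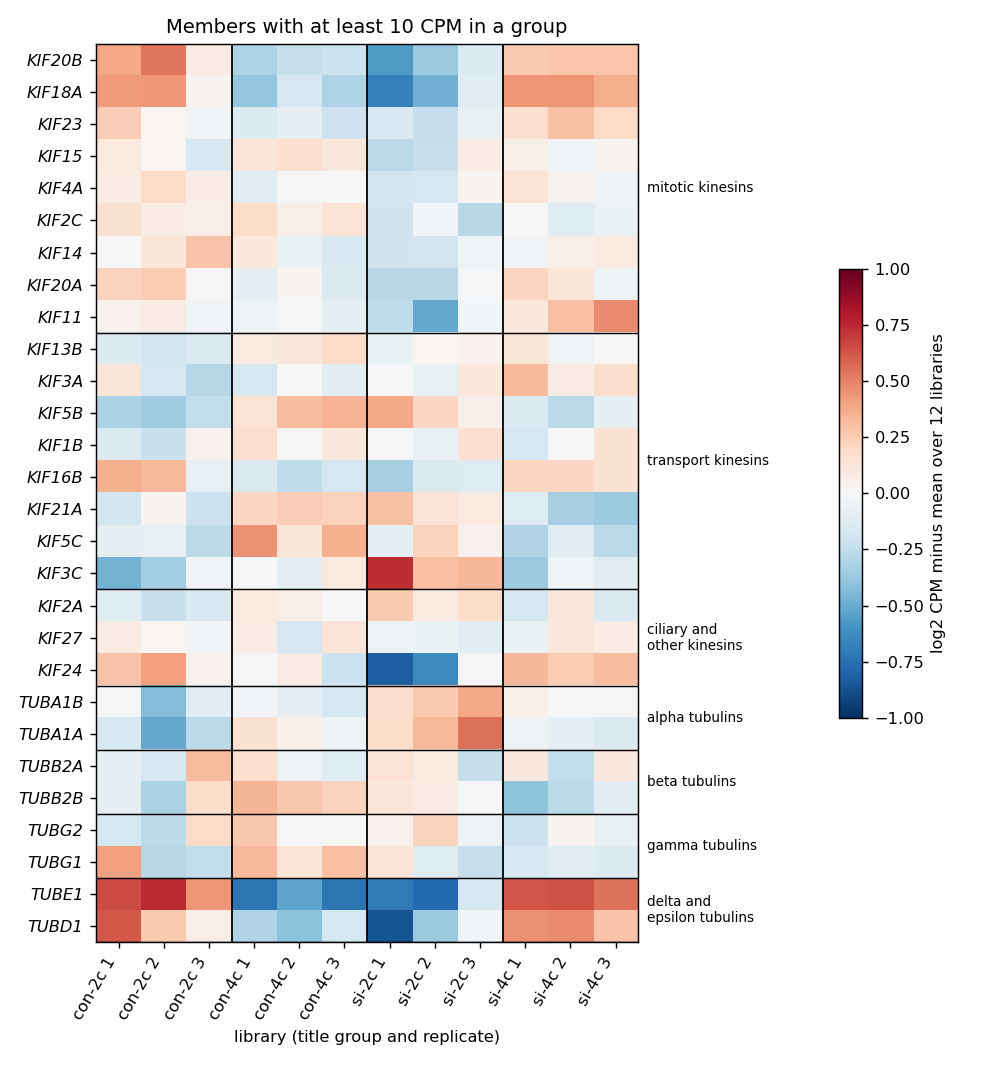
Heat map of the 28 kinesins and tubulins with a mean of at least 10 CPM in a group. Rows are genes by role, columns are the 12 libraries, and colour is log2 CPM minus the gene's mean over the libraries (red higher, blue lower). TUBE1, KIF20B and KIF18A are red in con-2c and si-4c and blue in con-4c and si-2c, while KIF5B and KIF21A show the reverse.

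Few of these genes differed by 2-fold. Calls needed an adjusted p under 0.05 together with a change of 2-fold or more (edgeR quasi-likelihood test, Benjamini-Hochberg adjustment over all genes tested). From 2c to 4c in con, that is in con-4c compared with con-2c, TUBA4A was called higher and TUBE1 and KIF18B lower, beside 14.4% of all genes tested called higher and 3.25% called lower. From con to si at 2c, TUBA4A and TUBB3 were called higher and TUBE1 and KIF18B lower, beside 10.7% and 1.8% of all genes. From con to si at 4c, TUBE1 and KIF18B were called higher and TUBA4A lower, beside 3.12% and 15.8%. From 2c to 4c in si, TUBE1 was called higher and TUBA4A lower, beside 1.47% and 11.9%. TUBE1 and TUBA4A were thus called in each of these comparisons, some of which share libraries.

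More members passed the adjusted p with smaller folds, and "rose" and "fell" refer to that threshold from here on. From 2c to 4c in con, 6 of 45 members rose and 7 fell, beside 20.7% and 15.1% of all genes tested. From con to si at 2c, 8 rose and 12 fell, beside 16.6% and 12.3% of all genes. From con to si at 4c, 9 rose and 5 fell, beside 15.1% and 21.7%, and from 2c to 4c in si, 8 rose and 7 fell, beside 12.1% and 16.9%. Among the 28 members with at least 10 CPM in some group, 5 rose and 6 fell from 2c to 4c in con, beside 57.1% of the 6668 genes of that abundance that passed in either direction. Of the same 28, 6 rose and 11 fell from con to si at 2c beside 50%, from con to si at 4c 8 rose and 4 fell beside 56.9%, and from 2c to 4c in si 8 rose and 6 fell beside 47.2%. These shares were not tested against each other.

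All values above rest on TMM scaling, under which the median log2 fold change over all genes tested was 0.11 from 2c to 4c in con, 0.12 from con to si at 2c, -0.11 from con to si at 4c and -0.13 from 2c to 4c in si. With libraries scaled by their totals instead, these medians were 0.38, 0.52, -0.37 and -0.51. The counts of members that rose and fell then became 16 and 4, 17 and 2, 4 and 13, and 2 and 17 in these comparisons, beside 29.2% and 7.37%, 33.6% and 3.77%, 7.61% and 29.4%, and 3.57% and 33.1% of all genes that rose and fell with that scaling. Of the members that passed with TMM, 10 of 13, 10 of 20, 9 of 14 and 9 of 15 also passed in the same direction with totals. KIF16B, KIF23 and TUBD1 did not in any of the 4 comparisons, nor did KIF11 in either in which it had passed. Changes described below were therefore read relative to the median of all genes where the sign of the plain fold change depended on scaling.

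Relative to all genes, the median of the mitotic kinesins was negative from 2c to 4c in con and positive from 2c to 4c in si. Their median log2 fold change was -0.17 from 2c to 4c in con and 0.18 from 2c to 4c in si, or -0.28 and 0.31 once the median of all genes is subtracted, and with libraries scaled by totals the plain medians turned to 0.09 and -0.20 while the relative values were -0.29 and 0.31. Of 13 tested, 4 fell and 0 rose from 2c to 4c in con (KIF18A, KIF18B, KIF20B and KIF23), with 5 at an unadjusted p below 0.05 in edgeR and 3 falling and 0 rising in DESeq2. From 2c to 4c in si, 4 rose (KIF11, KIF18A, KIF20B and KIF23) and 0 fell, with 4 and 0 in DESeq2 and 6 at an unadjusted p below 0.05, and without si-2c replicate 3 the number that rose was 7. From con to si at 2c, 8 fell (KIF14, KIF18A, KIF18B, KIF20A, KIF20B, KIF23, KIF2C and KIF4A) and 0 rose, with 8 falling and 0 rising in DESeq2 and 9 at an unadjusted p below 0.05, but 1 fell and 1 rose with totals and 6 fell with DESeq2 size factors in edgeR. From con to si at 4c, 5 rose (KIF11, KIF18A, KIF18B, KIF20B and KIF23) and 0 fell, with 6 at an unadjusted p below 0.05, whereas DESeq2 gave 5 and 1. With totals, 2 rose and 3 fell from 2c to 4c in con, beside 29.2% and 7.37% of all genes. With the same scaling 1 rose and 2 fell from 2c to 4c in si, beside 3.57% and 33.1%. From con to si at 4c, 3 rose and 2 fell, beside 7.61% and 29.4%, and at 2c the shares of all genes were 33.6% and 3.77%. KIF2A, which removes tubulin from microtubule ends and is listed with the ciliary and other kinesins, is not among the mitotic kinesin counts. It rose from con to si at 2c, opposite to the 8 mitotic kinesins that fell. At the adjusted p with TMM, 20.7% of all genes rose and 15.1% fell from 2c to 4c in con. These shares were 12.1% and 16.9% from 2c to 4c in si. They were 16.6% and 12.3% from con to si at 2c, and 15.1% and 21.7% from con to si at 4c. Of the 17995 genes tested, 7939 were at an unadjusted p below 0.05 from 2c to 4c in con, 6898 from 2c to 4c in si, 6939 from con to si at 2c and 8056 from con to si at 4c. The plain median of the list was -0.27 from con to si at 2c and 0.17 from con to si at 4c, -0.39 and 0.28 relative to all genes, and scaling by totals turned these plain medians to 0.13 and -0.09.

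KIF20B, a motor of late mitosis and cytokinesis, had the highest count of all members. It measured 1095, 1216 and 884 in con-2c, 1001, 1012 and 1016 in si-4c, 677, 714 and 719 in con-4c, and 566, 651 and 760.2 in si-2c, in CPM. The con-4c and si-2c libraries all lay below every con-2c and si-4c library. The log2 fold change was -0.60 ± 0.11 from 2c to 4c in con (adjusted p = 0.000379), -0.69 ± 0.11 from con to si at 2c (adjusted p = 0.000139), 0.52 ± 0.11 from con to si at 4c (adjusted p = 0.00125) and 0.62 ± 0.11 from 2c to 4c in si (adjusted p = 0.000427). Scaled by totals these were -0.32, -0.28, 0.26 and 0.23, the last with an adjusted p of 0.0777. In RefSeq's annotation of Sscrofa11.1 the gene lies at chr14:101512685-101594703.

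KIF18A (chr2:32244073-32331392), which dampens chromosome movements so that chromosomes align at metaphase, was likewise higher in con-2c and si-4c. Its CPM were 757, 761 and 575 in con-2c, 759, 764 and 724 in si-4c, 431, 501 and 455 in con-4c, and 352, 404 and 521 in si-2c. Again no con-4c or si-2c library reached a con-2c or si-4c library, and within con-2c and si-2c replicate 3 stood apart from the other pair, toward the level of the opposite groups. The log2 fold change was -0.59 ± 0.13 from 2c to 4c in con (adjusted p = 0.00142) and 0.81 ± 0.13 from 2c to 4c in si (adjusted p = 0.000120), and -0.71 ± 0.13 and 0.70 ± 0.13 for si against con at titles 2c and 4c (adjusted p = 0.000405 and 0.000367), and with totals the third of these, at title 2c, did not pass (-0.30, adjusted p = 0.0547). Its relative KIF18B (chr12:18426828-18448214), which limits the length of astral microtubules, was scarce, with 2.67, 3.03 and 2.52 in con-2c, 1.77, 2.34 and 3.58 in si-4c, 0.362, 1.03 and 0.780 in con-4c, and 1.88, 0.536 and 0.966 in si-2c CPM. Every con-2c library was above every con-4c library, but 1 si-2c library overlapped the range of si-4c. The log2 fold change of KIF18B was -1.92 ± 0.47 from 2c to 4c in con (adjusted p = 0.00377), 1.82 ± 0.46 from con to si at 4c (adjusted p = 0.00531) and -1.28 ± 0.44 from con to si at 2c (adjusted p = 0.0394). The call from con to si at 2c was lost without any 1 of con-2c replicate 1, 2 or 3, con-4c replicate 3 or si-2c replicate 2 or 3, with adjusted p between 0.0506 and 0.151 in these fits. It was also lost with totals (-0.87, adjusted p = 0.144) and with the replicate block (adjusted p = 0.0657).

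KIF23 (chr1:167239973-167281250) is the motor of the centralspindlin complex, which bundles midzone microtubules before the daughter cells separate. It measured 537, 460.2 and 442 in con-2c, 509, 555 and 519 in si-4c, 412, 426 and 393 in con-4c, and 407, 385 and 431 in si-2c, in CPM. Each si-4c library was above each con-4c and si-2c library, and con-2c was above con-4c and si-2c as well, though by little in its replicate 3. Differences were smaller than for KIF20B, -0.22 ± 0.08 on the log2 scale from 2c to 4c in con (adjusted p = 0.0425) and 0.37 ± 0.08 from 2c to 4c in si (adjusted p = 0.00249). Both plain values changed sign when libraries were scaled by totals (0.05 and -0.01), while the values relative to all genes were -0.34 and 0.50 with TMM and -0.33 and 0.50 with totals. From 2c to 4c in con KIF23 did not pass in DESeq2 (adjusted p = 0.0503) or with DESeq2 size factors in edgeR (adjusted p = 0.0889). KIF20B, KIF18A and KIF23 together held 51.2% ± 3.05 of the summed CPM of the 51 genes in con-2c and 51.0% ± 0.746 in si-4c, against 42.1% ± 0.917 in con-4c and 41.4% ± 1.94 in si-2c.

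With TMM, the other mitotic motors of at least 10 CPM gave smaller differences than KIF20B and KIF18A in these 4 comparisons. KIF11 (chr14:104125839-104177381), the tetrameric motor that pushes spindle poles apart, measured 39.3, 40.2 and 37.1 in con-2c, 40.9, 46.9 and 52.8 in si-4c, 36.8, 37.5 and 35.6 in con-4c, and 32.0, 26.8 and 37.3 in si-2c, in CPM. The si-4c libraries lay above all others. It rose by 0.55 ± 0.12 on the log2 scale from 2c to 4c in si (adjusted p = 0.00201) and by 0.36 ± 0.12 from con to si at 4c (adjusted p = 0.0259), whereas from 2c to 4c in con the value was -0.09 ± 0.12 (adjusted p = 0.627). Scaled by totals, neither rise passed, with values of 0.16 and 0.10 (adjusted p = 0.376 and 0.615). KIF2C, which removes tubulin from microtubule ends at kinetochores, was 165 ± 5.70 in con-2c, 148 ± 6.29 in si-4c, 169 ± 6.91 in con-4c and 138 ± 12.1 in si-2c, in CPM, and fell by 0.26 ± 0.08 from con to si at 2c (adjusted p = 0.0178). KIF4A, a chromosome-bound motor that also shapes the midzone, KIF14, which acts in cytokinesis, and KIF20A, which brings the chromosomal passenger complex to the midzone, fell in that same comparison by 0.22 to 0.35. Under scaling by totals the plain values of KIF14, KIF20A, KIF23, KIF2C and KIF4A changed sign there, and none of the 20 members that passed changed sign relative to the median of all genes. KIF15, a second motor for spindle bipolarity, passed in none of these 4 comparisons in edgeR with TMM over all libraries and tested genes, with means of 298, 304, 329.9 and 274 CPM in con-2c, si-4c, con-4c and si-2c. With totals it rose from 2c to 4c in con and from con to si at 2c and fell from con to si at 4c (0.42, 0.28 and -0.38), and with a mean of 10 CPM required it rose in the first of these and fell in the last (adjusted p = 0.0172 and 0.0218). Without si-2c replicate 3 it fell from con to si at 2c (-0.24, adjusted p = 0.0349) and rose from 2c to 4c in si (0.27, adjusted p = 0.0196). KIF22, a motor on chromosome arms, KIFC1, a minus-end motor that focuses poles, and KIF2B, a relative of KIF2C, were at most 6.19, 1.66 and 0.314 CPM in any group mean.

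**Figure D2:**
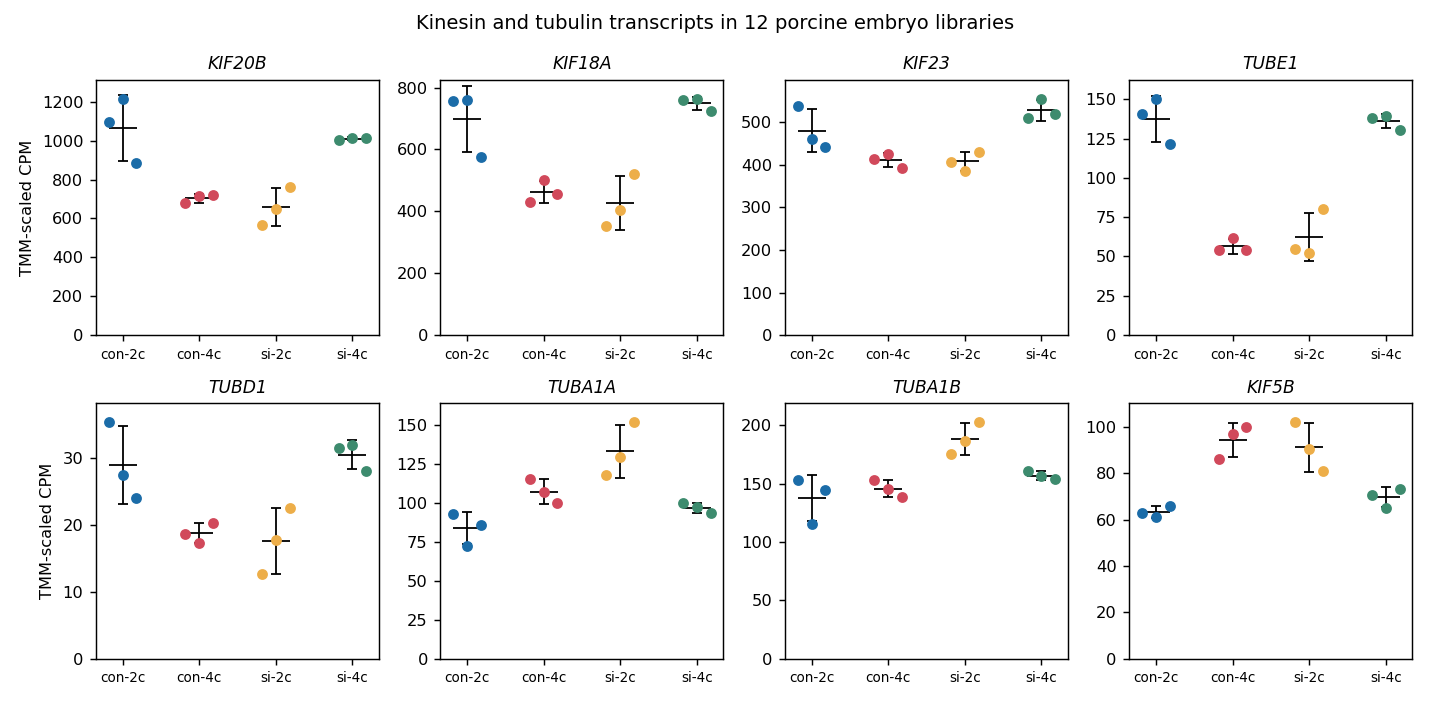
Dot plots of CPM (vertical axis, TMM-scaled, from 0) for 8 kinesins and tubulins by group. Points are the 3 libraries of a group, the horizontal mark is the mean and the bar is 1 SD. KIF20B, KIF18A, TUBE1 and TUBD1 are higher in con-2c and si-4c than in con-4c and si-2c, whereas TUBA1A and KIF5B are highest in con-4c or si-2c.

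Both centriolar tubulins passed in each of the 4 comparisons above, and TUBE1 had the largest log2 fold change of the 28 members above 10 CPM from 2c to 4c in con. TUBE1 (epsilon-tubulin, chr1:78018113-78048466) measured 141, 150.4 and 122 in con-2c, 138, 139 and 131 in si-4c, 53.9, 62.0 and 53.9 in con-4c, and 55.0, 52.1 and 79.9 in si-2c, in CPM. The highest library of con-4c and si-2c lay far below the lowest of con-2c and si-4c. In con-4c its level was 41.1% of that in con-2c, a log2 fold change of -1.28 ± 0.13 (adjusted p = 9.56e-07), and in si-2c it was 45.3% of con-2c, -1.14 ± 0.13 (adjusted p = 5.27e-06). In si-4c it was higher by 1.27 ± 0.13 than in con-4c (adjusted p = 1.10e-06) and by 1.12 ± 0.13 than in si-2c (adjusted p = 6.21e-06). Scaled by totals both of these values that involve si-2c fell below 2-fold (-0.73 from con to si at 2c and 0.74 from 2c to 4c in si) with adjusted p of 0.000490 and 0.000510. Without si-2c replicate 3, the highest si-2c library, they were -1.36 and 1.35.

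TUBD1 (delta-tubulin, chr12:36079939-36111306) moved the same way at a lower level. It measured 35.3, 27.5 and 24.0 in con-2c, 31.6, 31.9 and 28.0 in si-4c, 18.6, 17.3 and 20.4 in con-4c, and 12.6, 17.8 and 22.5 in si-2c, in CPM. Groups con-4c and si-2c were below con-2c and si-4c in every library. Its log2 fold change was -0.63 ± 0.18 from 2c to 4c in con (adjusted p = 0.0103), -0.71 ± 0.18 from con to si at 2c (adjusted p = 0.00515), 0.70 ± 0.18 from con to si at 4c (adjusted p = 0.00477) and 0.79 ± 0.18 from 2c to 4c in si (adjusted p = 0.00254). Scaled by totals it kept these signs but no longer passed, with adjusted p of 0.144, 0.187, 0.0599 and 0.0814.

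Both gamma-tubulins were tested. TUBG1 measured 14.9 ± 4.25 in con-2c, 13.6 ± 0.226 in si-4c, 17.8 ± 1.28 in con-4c and 14.2 ± 1.89 in si-2c, in CPM. TUBG2 measured 17.8 ± 3.08 in con-2c, 17.6 ± 1.49 in si-4c, 19.9 ± 2.24 in con-4c and 19.6 ± 1.91 in si-2c. Neither passed in any comparison in edgeR with TMM over all libraries and tested genes or in DESeq2, and in that edgeR fit TUBG1 from con to si at 4c was the only test of these genes with an unadjusted p below 0.05 (-0.39 ± 0.17, adjusted p = 0.0785). TUBG1 did fall from con to si at 4c with a mean of 10 CPM required, in a fit of these groups only and without con-2c replicate 1 (adjusted p = 0.0128, 0.0125 and 0.0280), and without that library it rose from 2c to 4c in con (adjusted p = 0.0142). The 95% intervals from 2c to 4c in con were -0.07 to 0.58 for TUBG1 and -0.11 to 0.43 for TUBG2 on the log2 scale, so a modest difference is not excluded by these libraries. Scaled by totals, TUBG1 rose from 2c to 4c in con, TUBG2 rose from con to si at 2c, and both fell from con to si at 4c and from 2c to 4c in si, while the values relative to all genes lay between -0.28 and 0.16. How reads common to such close copies were assigned was not given in the sources used here.

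Of 3 alpha-tubulins tested, 2 rose from 2c to 4c in con and 3 rose from con to si at 2c, while 1 fell from con to si at 4c and 3 fell from 2c to 4c in si, beside 20.7% and 16.6% of all genes that rose and 21.7% and 16.9% that fell in these comparisons. TUBA1A (chr5:15186059-15190211) measured 92.7, 72.6 and 86.0 in con-2c, 100.03, 97.4 and 93.7 in si-4c, 115, 107 and 99.7 in con-4c, and 118, 129.7 and 152 in si-2c, in CPM. All con-4c and si-2c libraries were above all con-2c libraries, and si-2c was above si-4c throughout. It rose by 0.36 ± 0.10 on the log2 scale from 2c to 4c in con (adjusted p = 0.0133) and by 0.67 ± 0.10 from con to si at 2c (adjusted p = 0.000119), and it fell by 0.46 ± 0.10 from 2c to 4c in si (adjusted p = 0.00323). TUBA1B (chr5:15150229-15153620), whose annotated span ends 32438 bases before that of TUBA1A, measured 153, 115 and 144 in con-2c, 161, 156 and 154 in si-4c, 153, 145 and 138 in con-4c, and 176, 187 and 202 in si-2c, in CPM. Here si-2c stood above the other groups in every library, and con-4c overlapped con-2c. TUBA1B rose by 0.45 ± 0.10 from con to si at 2c (adjusted p = 0.00176), and the value from 2c to 4c in con was 0.08 ± 0.10 (adjusted p = 0.563). It fell by 0.26 ± 0.10 from 2c to 4c in si (adjusted p = 0.0496), a result lost without si-2c replicate 3, where the value was -0.21 with an adjusted p of 0.152. The counts of both genes are uncertain to the extent that reads from their near-identical coding regions were shared between them.

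Within the pair, the balance shifted by a few percentage points. TUBA1A took 37.9% ± 0.687 of the summed CPM of TUBA1A and TUBA1B in con-2c and 38.2% ± 0.292 in si-4c, against 42.4% ± 0.537 in con-4c and 41.3% ± 1.39 in si-2c. The lowest share among con-4c and si-2c libraries, 40.1%, was above the highest among con-2c and si-4c libraries, 38.7%. A share within 1 library does not depend on how libraries are scaled, though it does depend on the lengths of both transcripts.

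TUBA4A (chr15:121290149-121294048), an alpha-tubulin that lacks the encoded terminal tyrosine of its relatives, was scarce but was called in the same 4 comparisons. It measured 3.02, 1.72 and 1.51 in con-2c, 2.97, 1.79 and 1.88 in si-4c, 3.26, 6.20 and 5.17 in con-4c, and 6.07, 5.52 and 3.76 in si-2c, in CPM, from 49 to 249 counts per library. The con-4c and si-2c libraries were all above the con-2c and si-4c libraries, though 1 con-4c library only just. Its log2 fold change was 1.23 ± 0.33 from 2c to 4c in con (adjusted p = 0.00729), 1.29 ± 0.33 from con to si at 2c (adjusted p = 0.00615), -1.14 ± 0.33 from con to si at 4c (adjusted p = 0.0111) and -1.21 ± 0.32 from 2c to 4c in si (adjusted p = 0.00967). The value from con to si at 4c was -0.92 (adjusted p = 0.0636) without con-4c replicate 2, and it also missed the threshold without si-4c replicate 2 (adjusted p = 0.0540).

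Of 5 beta-tubulins tested, 1 rose from con to si at 2c and 1 fell from con to si at 4c, beside 16.6% and 21.7% of all genes, shares near that of the members. DESeq2 also passed 1 higher from 2c to 4c in con (TUBB2B), beside 0 in edgeR with TMM. TUBB2A measured 32.6 ± 6.12 in con-2c, 31.9 ± 4.36 in si-4c, 31.9 ± 3.54 in con-4c and 32.1 ± 4.39 in si-2c, in CPM, passed in no comparison with TMM and had a 95% interval of -0.32 to 0.25 from 2c to 4c in con. TUBB2B (chr7:1952705-1955780) measured 13.4, 11.5 and 16.2 in con-2c, 10.8, 11.9 and 13.2 in si-4c, 18.1, 17.2 and 16.7 in con-4c, and 15.4, 15.1 and 14.2 in si-2c, in CPM. The con-4c libraries were the highest and the si-4c libraries overlapped those of con-2c. TUBB2B fell by 0.53 ± 0.14 on the log2 scale from con to si at 4c (adjusted p = 0.00553), and from 2c to 4c in con the value was 0.34 ± 0.14 (adjusted p = 0.0615). TUBB3, an isotype best known from neurons, measured 1.02, 0.178 and 1.05 in con-2c, 2.25, 1.30 and 0.747 in si-4c, 1.88, 1.33 and 1.63 in con-4c, and 4.31, 1.82 and 1.48 in si-2c, in CPM. It was called higher from con to si at 2c (1.76 ± 0.57, adjusted p = 0.0278), although 1 con-2c library at 0.178 CPM and 1 si-2c library at 4.31 CPM set much of that value, and it lost the call without either of them (adjusted p = 0.0956 and 0.196). TUBB1 and TUBB4A were under 1 CPM in every group mean. TUBB4A had 0, 10 and 0 counts in con-4c, and it was called lower from 2c to 4c in con and higher from con to si at 4c without con-4c replicate 2 (adjusted p = 0.0377 and 0.0409).

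The symbol TUBB, which carries no digit and so was not among the 51, was the beta-tubulin with the clearest difference. It measured 18.9, 20.6 and 25.7 in con-2c, 22.3, 21.9 and 19.98 in si-4c, 65.2, 59.5 and 57.5 in con-4c, and 48.4, 54.1 and 41.6 in si-2c, in CPM. Con-4c and si-2c lay above con-2c and si-4c in every library. Its log2 fold change was 1.48 ± 0.12 from 2c to 4c in con (adjusted p = 6.64e-08) and -1.50 ± 0.12 from con to si at 4c (adjusted p = 5.41e-08). With TUBB added, the beta-tubulin sum was 69.3 ± 12.04 in con-2c, 67.3 ± 4.26 in si-4c, 112 ± 8.37 in con-4c and 98.2 ± 11.4 in si-2c, in CPM.

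**Figure D3:**
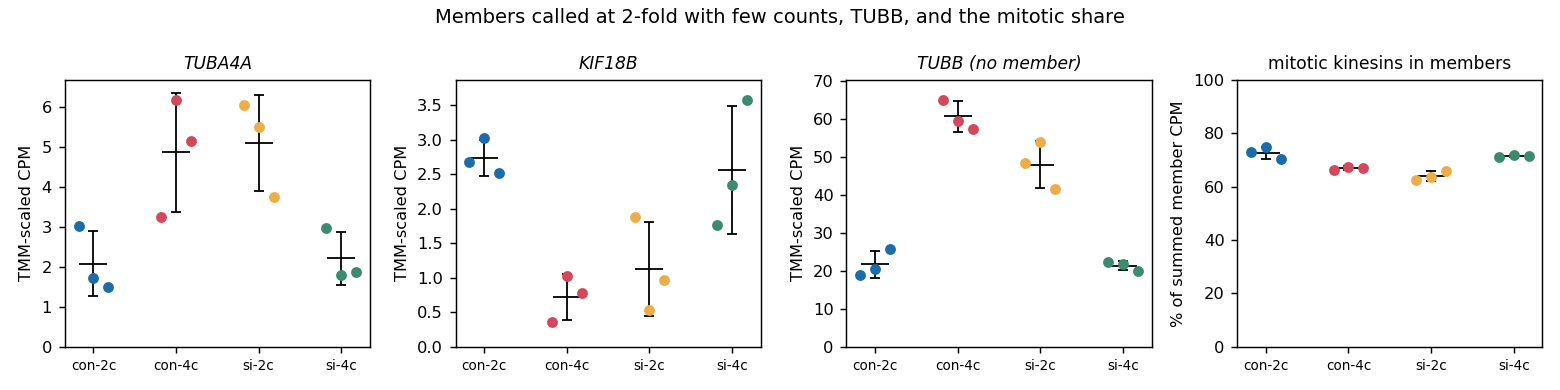
Dot plots of CPM (TMM-scaled, axis from 0) for TUBA4A, KIF18B and the beta-tubulin TUBB, which the name rule leaves out, and of mitotic kinesins as a percentage of the summed CPM of the 51 genes. Points are libraries, marks are group means and bars are 1 SD, with 3 libraries per group. TUBA4A and TUBB are higher in con-4c and si-2c, KIF18B in con-2c and si-4c, and the mitotic percentage is lowest in si-2c.

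At most 5 of the 13 transport kinesins tested passed in any of the 4 comparisons, although most plain values shared a sign. Of the 13, 4 rose and 1 fell from 2c to 4c in con, 3 rose and 1 fell from con to si at 2c, 2 rose and 3 fell from con to si at 4c, and 1 rose and 3 fell from 2c to 4c in si, beside 20.7% and 15.1%, 16.6% and 12.3%, 15.1% and 21.7%, and 12.1% and 16.9% of all genes. The plain value was positive in 10 and negative in 3 from 2c to 4c in con, in 12 and 1 from con to si at 2c, in 4 and 9 from con to si at 4c, and in 3 and 10 from 2c to 4c in si. The plain median of the list was 0.27, 0.18, -0.17 and -0.17 in these comparisons, which is 0.16, 0.05, -0.05 and -0.04 relative to all genes, and the last 3 of these changed sign in DESeq2 (-0.08, 0.02 and 0.10). Scaling by totals gave 7 and 0, 7 and 0, 0 and 5, and 0 and 7, beside 29.2% and 7.37%, 33.6% and 3.77%, 7.61% and 29.4%, and 3.57% and 33.1% of all genes.

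The conventional kinesin KIF5B (chr10:42637105-42693551), which hauls organelles and RNA granules, was the transport motor with the smallest adjusted p from 2c to 4c in con. It measured 62.7, 61.2 and 65.9 in con-2c, 70.7, 64.9 and 73.2 in si-4c, 86.1, 97.0 and 99.7 in con-4c, and 102, 90.5 and 80.8 in si-2c, in CPM. Con-4c and si-2c were above con-2c and si-4c in every library. KIF5B rose by 0.58 ± 0.09 on the log2 scale from 2c to 4c in con (adjusted p = 0.000128) and by 0.53 ± 0.09 from con to si at 2c (adjusted p = 0.000413). It fell by 0.44 ± 0.09 from con to si at 4c (adjusted p = 0.00145) and by 0.39 ± 0.09 from 2c to 4c in si (adjusted p = 0.00477). Its paralogue KIF5C (chr15:3190341-3361470) had means of 16.4, 15.5, 22.6 and 19.0 CPM, rose by 0.46 ± 0.13 from 2c to 4c in con and fell by 0.54 ± 0.13 from con to si at 4c (adjusted p = 0.00857 and 0.00278).

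KIF21A (chr5:70888999-71029832), which travels to growing microtubule ends and slows their growth, was, like KIF5B, higher in con-4c and si-2c. It measured 24.8, 28.7 and 24.3 in con-2c, 25.7, 22.4 and 21.8 in si-4c, 32.4, 33.3 and 33.0 in con-4c, and 34.5, 30.9 and 30.2 in si-2c, in CPM. All con-4c and si-2c libraries were above all con-2c and si-4c libraries. The log2 fold change was 0.34 ± 0.10, 0.30 ± 0.10, -0.50 ± 0.11 and -0.45 ± 0.10 for the change from 2c to 4c in con, from con to si at 2c, from con to si at 4c and from 2c to 4c in si (adjusted p = 0.0165, 0.0417, 0.00128 and 0.00358).

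KIF16B (chr17:24882139-25188990), a carrier of early endosomes, went against the other transport motors that passed from 2c to 4c in con. It measured 45.2, 44.1 and 33.4 in con-2c, 40.6, 40.7 and 39.2 in si-4c, 32.0, 29.5 and 31.3 in con-4c, and 28.0, 31.8 and 32.3 in si-2c, in CPM. Every con-2c and si-4c library was above every con-4c and si-2c library. The log2 fold change was -0.40 ± 0.11, -0.41 ± 0.11, 0.38 ± 0.11 and 0.39 ± 0.11 in the same comparisons (adjusted p = 0.00944, 0.00966, 0.0135 and 0.0142). Scaled by totals none passed, with values of -0.12, -0.01, 0.12 and 0.01 (adjusted p from 0.417 to 0.971).

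Subunits of the heterotrimeric kinesin differed among themselves. KIF3A, the common subunit, was 84.5 ± 12.5 in con-2c, 104 ± 8.95 in si-4c, 85.0 ± 5.25 in con-4c and 91.5 ± 5.77 in si-2c, in CPM, and rose from con to si at 4c (0.29 ± 0.10, adjusted p = 0.0389), which did not pass in DESeq2 (adjusted p = 0.0760) and was 0.03 with totals (adjusted p = 0.864). KIF3C, which takes the place of KIF3B in some dimers, measured 7.13, 7.81 and 9.62 in con-2c, 7.68, 9.60 and 9.14 in si-4c, 9.91, 9.21 and 10.5 in con-4c, and 16.5, 12.2 and 12.4 in si-2c, in CPM. The si-2c libraries were the highest of all 12. KIF3C rose by 0.74 ± 0.17 on the log2 scale from con to si at 2c (adjusted p = 0.00259) and fell by 0.64 ± 0.16 from 2c to 4c in si (adjusted p = 0.00761), while KIF3B, at 7.66 to 9.70 CPM in the group means, passed in no comparison with TMM. KIF13B, another carrier of vesicles, rose from 2c to 4c in con (194 to 238 CPM in the means, 0.29 ± 0.07, adjusted p = 0.00400). KIF1B, KIF13A and KIF17, further vesicle carriers, passed in no comparison with TMM over all genes tested, while KIF1B rose from 2c to 4c in con with totals (0.47, adjusted p = 0.0101) and with a mean of 10 CPM required (adjusted p = 0.0142). KIF5A and KIF1C stayed under 1 CPM in every group mean.

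Among ciliary and other kinesins, KIF24 (chr10:32454615-32552763) and KIF2A (chr16:41016680-41101122) differed. KIF24, a microtubule-depolymerizing motor at the mother centriole that restrains cilium growth, measured 38.4, 41.7 and 32.4 in con-2c, 39.6, 37.5 and 38.9 in si-4c, 31.1, 33.2 and 27.1 in con-4c, and 17.8, 20.2 and 31.0 in si-2c, in CPM. Replicates 1 and 2 of si-2c were the lowest libraries and its replicate 3 lay within the range of con-4c. KIF24 fell by 0.70 ± 0.16 on the log2 scale from con to si at 2c (adjusted p = 0.00337) and rose by 0.75 ± 0.16 from 2c to 4c in si (adjusted p = 0.00222). From 2c to 4c in con the value was -0.30 ± 0.16 (adjusted p = 0.172). Without si-2c replicate 3 these si-2c comparisons gave -0.98 and 1.03, and with totals -0.29 and 0.36, neither of which passed (adjusted p = 0.186 and 0.106). KIF2A, which depolymerizes microtubules at spindle poles, was 121 ± 4.25 in con-2c, 130.3 ± 14.0 in si-4c, 141 ± 4.58 in con-4c and 154 ± 9.03 in si-2c, in CPM, rose from con to si at 2c (0.35 ± 0.08, adjusted p = 0.00460) and fell from 2c to 4c in si (-0.24 ± 0.08, adjusted p = 0.0376). KIF27, KIF7, KIF9, KIF12 and KIF26B, the first of these at 38.0 to 41.3 CPM and the rest under 10 CPM in the group means, passed in no comparison in edgeR with TMM. KIF26B rose from con to si at 2c in DESeq2 (0.53, adjusted p = 0.0425) and with DESeq2 size factors in edgeR (adjusted p = 0.0472), against 0.0536 with TMM.

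**Figure D4:**
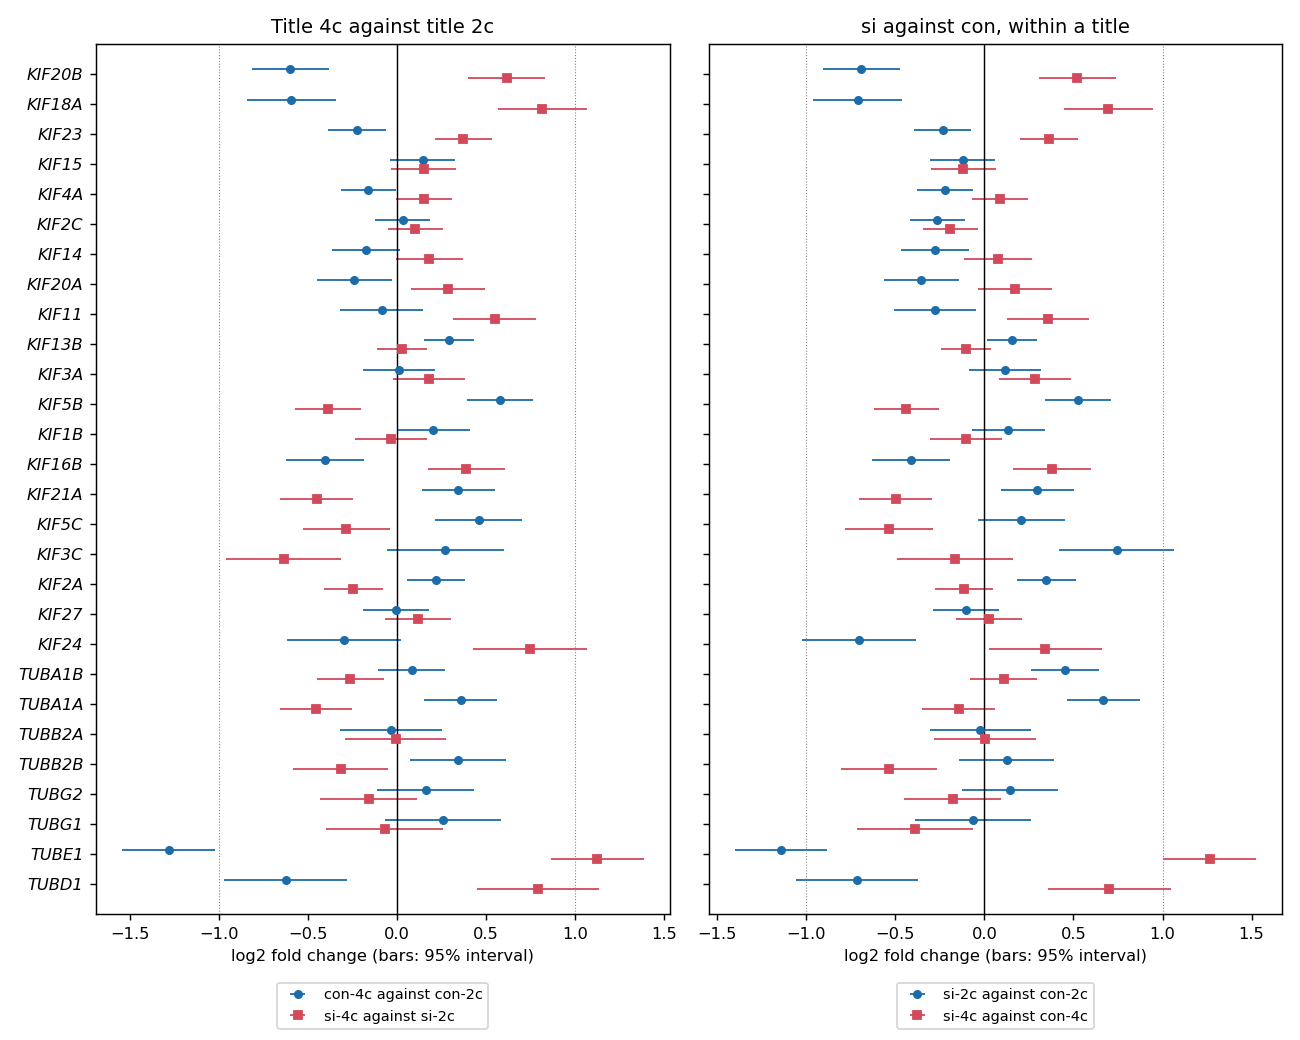
Log2 fold changes (horizontal axis) with 95% intervals for the 28 members with at least 10 CPM in a group. The left panel sets the change from 2c to 4c in con (blue circles) beside that in si (red squares), the right panel the change from con to si at 2c (blue circles) beside that at 4c (red squares), and dotted lines mark 2-fold. Blue and red lie on opposite sides of 0 for 23 of the 28 genes (82.1%) in each panel, beside 81.6% (left) and 79.0% (right) of all genes of that abundance, as for TUBE1, which fell by 1.28 from 2c to 4c in con and rose by 1.12 from 2c to 4c in si.

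The stage difference thus had opposite signs in the con and si arms for most members, as it had for most genes. The changes from 2c to 4c in con and in si share no library, and their log2 fold changes had opposite signs in 33 of 45 members (73.3%), beside 77.0% of all genes tested. Of the 10 members that passed in both, 10 had opposite signs, beside 3942 of the 3962 genes that passed in both, so the members were at the background. For the changes from con to si at 2c and at 4c, which also share no library, signs were opposite in 32 of 45 members (71.1%), beside 75.0% of all genes, and in 10 of the 10 that passed in both, beside 3866 of 3924 genes.

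The difference between the stage differences was tested as an interaction, the change from 2c to 4c in si less that in con. At 2-fold, 6 members were called higher (TUBE1, KIF18A, KIF20B, TUBD1, KIF18B and KIF24) and 2 lower (TUBA4A and KIF5A), beside 9.87% and 22.5% of all genes tested. KIF24 was near the limit and fell under 2-fold without con-2c replicate 2, con-4c replicate 3 or si-2c replicate 1 or 2 (0.90 to 0.97), and with totals it was 0.38 and did not pass (adjusted p = 0.202). Without the fold, 12 were higher and 11 lower, beside 18.2% and 27.3%. The interaction of TUBE1 was 2.41 ± 0.19 on the log2 scale (adjusted p = 1.77e-08), that of KIF18A 1.41 ± 0.18 (adjusted p = 6.41e-06) and that of KIF20B 1.21 ± 0.16 (adjusted p = 6.67e-06). TUBD1 gave 1.41 ± 0.25 (adjusted p = 0.000177), and TUBA1A and KIF5B gave -0.81 ± 0.15 and -0.96 ± 0.13 (adjusted p = 0.000249 and 1.50e-05). By role, 8 of 13 mitotic kinesins were higher and 0 lower in the interaction, with 6 and 0 in DESeq2. With totals 3 were higher and 3 lower, beside 7.09% and 43.2% of all genes. In edgeR 8 were at an unadjusted p below 0.05, beside 9272 of 17995 genes. The median of the mitotic kinesins was 0.36, turned to -0.29 under scaling by totals and was 0.59 relative to all genes with TMM and with totals. In DESeq2 it was 0.30, or 1.12 relative to all genes, whose median was -0.81 there. Scaling by totals changed the sign of KIF11, KIF14, KIF20A, KIF23 and KIF4A, and of no other member that passed, and KIF4A then passed in the opposite direction (-0.35, adjusted p = 0.0226). KIF2A was lower in the interaction (-0.46 ± 0.12, adjusted p = 0.00427), but relative to all genes it was -0.23 and turned to 0.30 in DESeq2, where KIF13B, KIF5C, TUBA1B and TUBB2B also turned from below to above the median of all genes, as did KIF2A and TUBA1B from 2c to 4c in si.

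Few members passed across the arms, between con-2c and si-4c or between con-4c and si-2c. In si-4c compared with con-2c, 0 members were called higher and 0 lower in edgeR, beside 0.0333% and 0.3% of all genes tested. None passed the adjusted p in either direction, beside 0.106% and 0.567%, while 3 had an unadjusted p below 0.05 (KIF13B, KIF11 and KIF3A), beside 2033 of 17995 genes, and DESeq2 passed 0. The 95% intervals of all 28 members above 10 CPM lay within 2-fold, the lowest bound being -0.46 (TUBG1) and the highest 0.50 (KIF11) on the log2 scale. TUBE1 differed by -0.02 ± 0.13 and KIF20B by -0.08 ± 0.11 in that comparison. In si-2c compared with con-4c, 0 members were called higher and 0 lower, beside 0.161% and 1.63% of all genes, and DESeq2 also called 0. There TUBA1B rose (0.37 ± 0.10, adjusted p = 0.0247) and KIF2C fell (-0.30 ± 0.08, adjusted p = 0.0278), beside 2.22% of all genes that rose and 5.32% that fell, with 6 members and 3481 of 17995 genes at an unadjusted p below 0.05. DESeq2 passed 2 higher and 2 lower, and without si-2c replicate 3 neither TUBA1B nor KIF2C passed and KIF15 and KIF24 fell instead (-0.38 and -0.68). All 28 intervals again lay within 2-fold, from -0.73 (KIF24) to 0.79 (KIF3C). Being within these intervals does not show that the groups are alike.

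The partners of these motors and tubulins were read from lists of the microtubule system. Of 36 tested spindle and microtubule-associated proteins, 4 rose and 8 fell from 2c to 4c in con, and 10 rose and 4 fell from con to si at 4c. PRC1, the midzone crosslinker that binds KIF4A, had means of 836, 718, 374 and 366 CPM in con-2c, si-4c, con-4c and si-2c (-1.16 ± 0.08 on the log2 scale from 2c to 4c in con, adjusted p = 2.83e-09). KNSTRN, a spindle protein of kinetochores, had means of 371, 361, 169.8 and 177 CPM. Of 17 tested genes of the gamma-tubulin ring complex and augmin, which nucleate microtubules, 3 rose and 8 fell from 2c to 4c in con, and 9 rose and 3 fell from con to si at 4c. NME7, a component of the ring complex, had means of 351, 364, 165 and 193 CPM, and TUBGCP6, a subunit of it, was at 0 counts in every con-2c and si-4c library and at 0.343 to 1.15 CPM in the others.

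Of 23 tested chaperones and cofactors of tubulin folding, 3 rose and 10 fell from 2c to 4c in con, and 10 rose and 4 fell from con to si at 4c. PFDN4, a subunit of prefoldin, and PDCD5, which binds the CCT chaperonin, fell from 2c to 4c in con by 1.17 ± 0.09 and 1.16 ± 0.09 on the log2 scale, while the cofactor TBCC rose (adjusted p = 2.31e-08). TBCC measured 8.72, 9.63 and 10.3 in con-2c, 8.79, 9.31 and 8.75 in si-4c, 43.0, 41.5 and 38.8 in con-4c, and 33.9, 33.5 and 20.6 in si-2c, in CPM, with con-4c and si-2c above con-2c and si-4c in every library. Among 18 tested tubulin-modifying enzymes, 4 rose and 2 fell from 2c to 4c in con, and 1 rose and 2 fell from con to si at 4c. HDAC6, which deacetylates alpha-tubulin, had means of 0.401, 0.296, 5.02 and 3.64 CPM. Of 11 kinesin light chains and adaptors, 2 rose and 2 fell from 2c to 4c in con and 1 rose and 3 fell from con to si at 4c, with TRAK2, which couples kinesin to mitochondria, at 11.8, 10.6, 26.9 and 16.1 CPM. Of 25 genes of dynein and dynactin, the motor that runs opposite to most kinesins, 5 rose and 9 fell, and 8 rose and 4 fell in these comparisons. All these lists stand beside 20.7% of genes that rose and 15.1% that fell from 2c to 4c in con, and 15.1% and 21.7% from con to si at 4c.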

How the data were processed

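Per the labels, cDNA primed with oligo(dT) was amplified, fragmented and sequenced in pairs, and 12 libraries of pig embryos in 4 title groups of 3 were used. The deposited values were raw counts per Ensembl gene, not normalized by the authors. The submitters' processing notes name cutadapt 1.9, HISAT2 2.2.1, StringTie 2.1.6, DESeq2, edgeR and the build Sscrofa11.1. The counting program, annotation release, use of strand and handling of reads matching several genes were not given in the sources used here, so close paralogues and overlapping genes are uncertain. PCR copies carried no molecular identifiers, so the spread between libraries, not counting error, sets the precision.

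The tests used edgeR 4.0.16 under R 4.3.3: filterByExpr (17995 genes), TMM factors (0.852 to 1.21), and 1 quasi-likelihood model of 4 group means over 12 libraries. The biological coefficient of variation was 27.3%. P-values were adjusted by Benjamini-Hochberg over all genes tested, and calls required an adjusted p under 0.05 and a log2 fold change of 1 or more in size, the thresholds of the study. Standard errors are the log2 fold change over the square root of F. CPM are TMM-scaled, and values with ± are mean ± SD (n = 3) for CPM and estimate ± SE for log2 fold changes. The study's own test, DESeq2 (1.42.0), was an alternative, beside scaling by library totals or DESeq2 size factors, other filters, fits on the compared groups, a replicate block and leaving out each library. The fits were tested on simulated data.

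The genes and lists were chosen with earlier results of these data known. Any tested member could be named. Library values were given for members of at least 10 CPM in a group that the results turn on, and, added after their values were seen, for called members below that and for TUBB. Fold changes were given for called members (at most 8 each way), for tubulins of at least 10 CPM and, as an addition made after values were seen, for members past the adjusted p. Of each partner list, named genes came from the 2 called genes with the smallest p in each direction from 2c to 4c in con and si-4c against con-4c. Symbols were those of the deposited table. Positions are from RefSeq for Sscrofa11.1, where 46 of 51 symbols matched. No 2 replicates agreed within sampling noise (chi-square divided by its degrees of freedom 7.48 to 44.0), so each was kept. Nothing in the labels says that libraries came from separate collections of embryos, so p-values measure the spread between these libraries. Circular RNA was not analysed here.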

Additional observations from a re-analysis of the deposited data

Results flagged for a closer look

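The stage difference differed between the si and con arms by a test of the difference itself (edgeR interaction, si-4c minus si-2c less con-4c minus con-2c) in the 8 members called in it. The log2 difference was 2.41 for TUBE1, 1.41 for KIF18A, 1.21 for KIF20B and 1.41 for TUBD1. KIF24 gave 1.05, KIF18B 3.10 and TUBA4A -2.43, the last pair from under 10 CPM in every group. KIF5A gave -5.88, a fitted value that is no bound because it rests on few counts, with 33, 53 and 28 counts in si-2c against 0, 7 and 0 in si-4c, and with 34, 0 and 9 in con-4c. The KIF5A call was lost without con-4c replicate 1, si-2c replicate 2 or si-4c replicate 1 or 3 (adjusted p 0.0504 to 0.138). Scaled by library totals, KIF18A gave 0.74, KIF20B 0.55 and TUBD1 0.75, below 2-fold but past the adjusted p (0.00147, 0.00370 and 0.0191), TUBE1 gave 1.74, and KIF24 gave 0.38 and did not pass (adjusted p 0.202).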

How the results depend on the processing

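Of 381 alternative values of the 20 single-gene calls, 351 kept their direction and their side of the threshold, 30 kept the direction but lost the call, and 0 reversed. Counts of called members, given as higher and lower, moved as follows, and the cause was not tested except where fewer genes were tested or the fold was dropped. Scaled by library totals they were 4 and 0 from con to si at 2c, 0 and 3 from 2c to 4c in si, and 2 and 11 in the interaction. The shares of all genes called at 2-fold with totals are not given here. At adjusted p alone, totals gave 16 and 4 from 2c to 4c in con, 17 and 2 from con to si at 2c, 4 and 13 from con to si at 4c, 2 and 17 from 2c to 4c in si, 2 and 0 in si-2c against con-4c, and 5 and 24 in the interaction. In the same order, 29.2% and 7.37%, 33.6% and 3.77%, 7.61% and 29.4%, 3.57% and 33.1%, 4.98% and 3.45%, and 7.09% and 43.2% of all genes were higher and lower. With a mean of at least 10 CPM required, which leaves out TUBA4A, TUBB3 and KIF18B, calls were 0 and 1 from 2c to 4c in con and from con to si at 2c, 1 and 0 from con to si at 4c, 0 lower from 2c to 4c in si, and 3 and 4 in the interaction. With no minimum fold they were 6 and 7, 8 and 12, 9 and 5, 8 and 7, 1 and 1 in si-2c against con-4c, and 12 and 11 in the interaction. From 2c to 4c in si, 2 were called lower by DESeq2 and in a fit of these groups only, and 2 and 2 with no low count filter. DESeq2 size factors in edgeR gave 4 lower in the interaction. In si-2c against con-4c at adjusted p alone, DESeq2 gave 2 and 2, and leaving out si-2c replicate 3 gave 0 and 2.

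Leaving out 1 library at a time gave 1 higher and 2 to 3 lower from 2c to 4c in con, 1 to 2 and 1 to 2 from con to si at 2c, 2 to 3 and 0 to 1 from con to si at 4c, 1 to 3 and 1 to 2 from 2c to 4c in si, 5 to 6 and 1 to 4 in the interaction, and 0 in both comparisons across the arms. Libraries that decide a lost call are named with the gene. Calls were gained for TUBB4A without con-4c replicate 2, for KIF18B from 2c to 4c in si without con-4c replicate 1, si-2c replicate 1 or si-4c replicate 1, for KIF24 and TUBD1 there without si-2c replicate 3, for KIF5A without con-4c replicate 2 or si-4c replicate 2, and in the interaction for KIF3C without con-2c replicate 3, KIF5B without con-4c replicate 1 or si-2c replicate 3, and TUBB3 without con-2c replicate 3, si-2c replicate 3 or si-4c replicate 1. Replicate numbers did not pair the samples (correlations of same-numbered libraries -0.05 to 0.03). With the replicate block, 1 member was called lower from con to si at 2c, since KIF18B lost its call (adjusted p = 0.0657), and of the mitotic kinesins 4 fell there in place of 8. The counts at adjusted p alone were alternatives chosen after seeing the data. Of the 28 members above 10 CPM, si-2c replicate 3 was the highest of its group in 17, and it held the largest share of counts in these genes (0.476% against 0.383% to 0.409% elsewhere). Genes under 1 CPM are limited by depth.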
